A study of Mus musculus with 12 samples.

Results

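The mitochondrial ribosomal protein genes described here are the listed genes whose symbol begins with Mrpl, for the large subunit, or Mrps, for the small subunit, followed by a number, with pseudogenes left out. There were 71 such genes among the 11494 in the table, 47 with a large-subunit name and 24 with a small-subunit name. They were measured by bulk RNA-seq in blood neutrophils of mice that had received a bone marrow transplant, in 6 libraries of the genotype Control and 6 of the genotype LOY (loss of Y), a name for marrow cells that lack the Y chromosome. The series title sets this comparison in a study of haematopoietic Y loss, cardiac fibrosis and heart failure. The treatment label reads Control in all 12 libraries. The labels used here give no strain, age or time after transplant, and they do not say how the Y chromosome was removed or what drives RFP, the red fluorescent protein on which the cells were sorted. For each sample 10000 cells that were Ly6G+, CD115- and RFP+ were collected. Nor do the labels tie a library to 1 mouse, so the p-values cover the spread between libraries, which may be technical.

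Mitochondria carry their own ribosome, which is built from ribosomal RNAs encoded in mitochondrial DNA and from proteins that are encoded in the nucleus, made in the cytosol and imported. It translates the few membrane-embedded subunits of the respiratory chain and of ATP synthase that mitochondrial DNA encodes. Its large subunit forms peptide bonds and holds the exit tunnel, and its small subunit binds the messenger RNA and decodes it. Mature neutrophils are known for having few mitochondria and for drawing their energy mainly from glycolysis.

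The whole series was read as follows. Control libraries held 13743581 to 18459792 recovered reads and LOY libraries 17097739 to 19616066. Control 1, 2 and 12 stood apart with 20.5%, 21.7% and 17.3% of listed genes at 0, where Control 6, 17 and 18 had 9.33% to 11.1% and the LOY group 6.59% to 11.6%. The Y-linked gene Ddx3y was read at 1054 ± 267 (Control) and 68.7 ± 146 (LOY) normalized reads (SD, n = 6 each), and LOY 4, at 366, was the LOY library with the most. All 10 neutrophil markers were in the table, and they summed to 83638 to 134217 (Control) and 86301 to 116690 (LOY) per 1000000 normalized reads, the scale of all sums below. Of the immature neutrophil markers 7 of 10 were in the table, with sums of 855 to 2221 and 1114 to 1935, while Elane, Mpo and Top2a were not analysed here. The single markers Ltf and Camp differed more than this sum, both with a higher mean in LOY. Of the 6 immature neutrophil markers that were tested with limma, 3 had a log2 fold change above 0 and 3 below. Ltf, of secondary granules, stood at 99.3 ± 87.2 in Control and 790 ± 508 in LOY (SD, n = 6 each). For Ltf 5 LOY libraries were above every Control library. Its adjusted p was 0.0345 in the authors' deposited table and 0.602 with limma. Camp, a granule peptide gene, stood at 64.9 ± 84.8 and 183 ± 45.1. Of the monocyte markers 2 were called in the authors' deposited table. Their part in the results below was not tested. Sums were 502 to 859 and 676 to 1023 for 5 of 7 monocyte markers, 227 to 400 and 106 to 459 for 5 of 5 B cell markers, and 7.01 to 28.3 and 5.72 to 15.5 for 4 of 6 T and NK cell markers. For 4 of 5 platelet markers they were 30.2 to 88.2 and 27.4 to 69.8. The sum of all 7 erythroid markers was 4280 to 8888 in Control and 5903 to 37976 in LOY, where LOY 15 alone gave the highest value.

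The genes of both subunits were read at very unequal levels. Mean normalized reads over the 12 libraries ranged from 12.0 to 11914 for large-subunit genes and from 13.03 to 1266 for small-subunit genes. A normalized read is a read count divided by the size factor of its library. Levels of different genes were compared as mean normalized reads per kilobase of the gene's exons. On this scale the highest large-subunit genes were Mrpl33 (1626 per kilobase), a small protein with a bacterial counterpart, and Mrpl43 (608 per kilobase), a protein without one. The highest small-subunit genes were Mrps21 (1714 per kilobase) and Mrps15 (525 per kilobase), both counterparts of bacterial small-subunit proteins. The lowest tested genes were Mrpl13 (5.64 per kilobase) and Mrpl58 (5.61 per kilobase) in the large subunit and Mrps25 (3.38 per kilobase) and Mrps10 (2.67 per kilobase) in the small subunit. Mrpl58 also acts as a peptidyl-tRNA hydrolase that frees stalled mitochondrial ribosomes. The median was 77.8 per kilobase over large-subunit genes and 43.7 over small-subunit genes.

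Mrpl33 alone held 41.8% of all member reads over the 12 libraries, and the 5 members with the most reads held 56.1%. Its share of member reads was 38.1% to 53.4% in Control and 33.1% to 44.6% in LOY, so the groups overlapped. GENCODE joins 7326 bases of exon into its gene model, from 31596935 to 31664384 on chromosome 5 (GRCm38), whereas its longest coding transcript has 478 bases. With all reads of the gene model divided by that length, it reached 24924 normalized reads per kilobase and ranked first. Over all exons it ranked 2 of 71. Where in the model the reads fall was not examined. Neither this level nor the 41.8% can therefore be ascribed to the coding transcript. Mrps10 was 71 of 71 over all exons and 61 over its longest coding transcript, so places in the order depend on the length used.

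Promoters were read for the members that the results turn on. RefSeq windows of 300 bases (GRCm38.p6, 250 before to 50 after the start) were matched for 62 of the 71 members. Shown are Mrpl33, the member with the most reads, and Mrps10 and Mrpl42, the 2 members with the highest fold change in LOY. Capitals mark matches to CCGGAAG (the core of an ETS factor motif), GCATGCGC (NRF1, a regulator of nuclear genes for mitochondrial proteins) or AAGATGGCG (YY1), on either strand.
Mrpl33, chr5:31613701-31614000, plus strand: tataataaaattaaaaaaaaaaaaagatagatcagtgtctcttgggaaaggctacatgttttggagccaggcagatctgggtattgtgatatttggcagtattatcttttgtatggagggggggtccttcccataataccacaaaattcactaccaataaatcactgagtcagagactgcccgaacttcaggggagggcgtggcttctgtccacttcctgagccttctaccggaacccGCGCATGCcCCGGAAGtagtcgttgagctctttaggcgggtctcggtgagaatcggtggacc
Mrpl42, chr10:95501900-95502199, minus strand: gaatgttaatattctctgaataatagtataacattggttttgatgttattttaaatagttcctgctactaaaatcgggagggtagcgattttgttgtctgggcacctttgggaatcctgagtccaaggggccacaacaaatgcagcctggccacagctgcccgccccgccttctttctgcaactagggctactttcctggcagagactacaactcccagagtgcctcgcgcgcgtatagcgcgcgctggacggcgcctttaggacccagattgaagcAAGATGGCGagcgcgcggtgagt
Mrps10, chr17:47368947-47369246, plus strand: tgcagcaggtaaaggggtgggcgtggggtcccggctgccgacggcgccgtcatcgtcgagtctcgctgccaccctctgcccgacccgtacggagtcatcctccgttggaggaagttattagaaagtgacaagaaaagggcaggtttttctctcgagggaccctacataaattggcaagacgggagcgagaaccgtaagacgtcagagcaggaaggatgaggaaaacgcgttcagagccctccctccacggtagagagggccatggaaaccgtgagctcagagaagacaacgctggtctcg
The Mrpl33 window holds an NRF1 match with an ETS match 1 base after it, the Mrpl42 window a YY1 match just after its start, and the Mrps10 window none of these letters. The Mrpl33 and Mrps10 windows start inside the GENCODE gene models, because RefSeq places these starts further downstream. The bases before the GENCODE starts of these genes were not searched.

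A gene was counted if any of its windows matched, and the 62 matched members had 68 windows. The ETS letters were found for 25 of 62 members (40.3%), against 22.5% of genes in the table and 9.93% of all genes with a window. The NRF1 letters were found for 8 members (12.9%, against 6.25% and 3.05%), 7 large-subunit genes and 1 small-subunit gene. The large-subunit genes with them include Mrpl9, Mrpl10, Mrpl17, Mrpl22, Mrpl32, Mrpl33 and Mrpl39, and the small-subunit gene is Mrps18b. The YY1 letters were found for 6 members (9.68%, against 4.06% and 1.64%), namely Mrpl36, Mrpl37, Mrpl42, Mrps11, Mrps18a and Mrps24. A control motif, CCAAT, was found for 41.9% of members, 42.5% of genes in the table and 41.1% of all genes with a window. A match is a description of letters and not a site shown to be bound.

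The 71 genes lay on 17 chromosomes, with 11 of them on chromosome 11 and 0 on X or Y. Several had a divergent neighbour. For 16 of 71 members (22.5%) another protein-coding gene started within 1000 bases on the opposite strand and pointed away, against 11.6% of the protein-coding genes in the table and 6.79% of all. Examples are Mrps12 and the mitochondrial seryl-tRNA synthetase gene Sars2, whose starts are 172 bases apart, Mrpl49 and the ribosomal protein gene Fau, 59 bases apart, and Mrpl40 and the histone chaperone gene Hira, 175 bases apart. Mrpl46 and Mrps11 overlap each other by 173 bases on opposite strands. Altogether 29 members shared exon bases with another gene, and the library kit does not mark strand, so reads in those bases cannot be assigned to one gene.

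**Figure D1:**
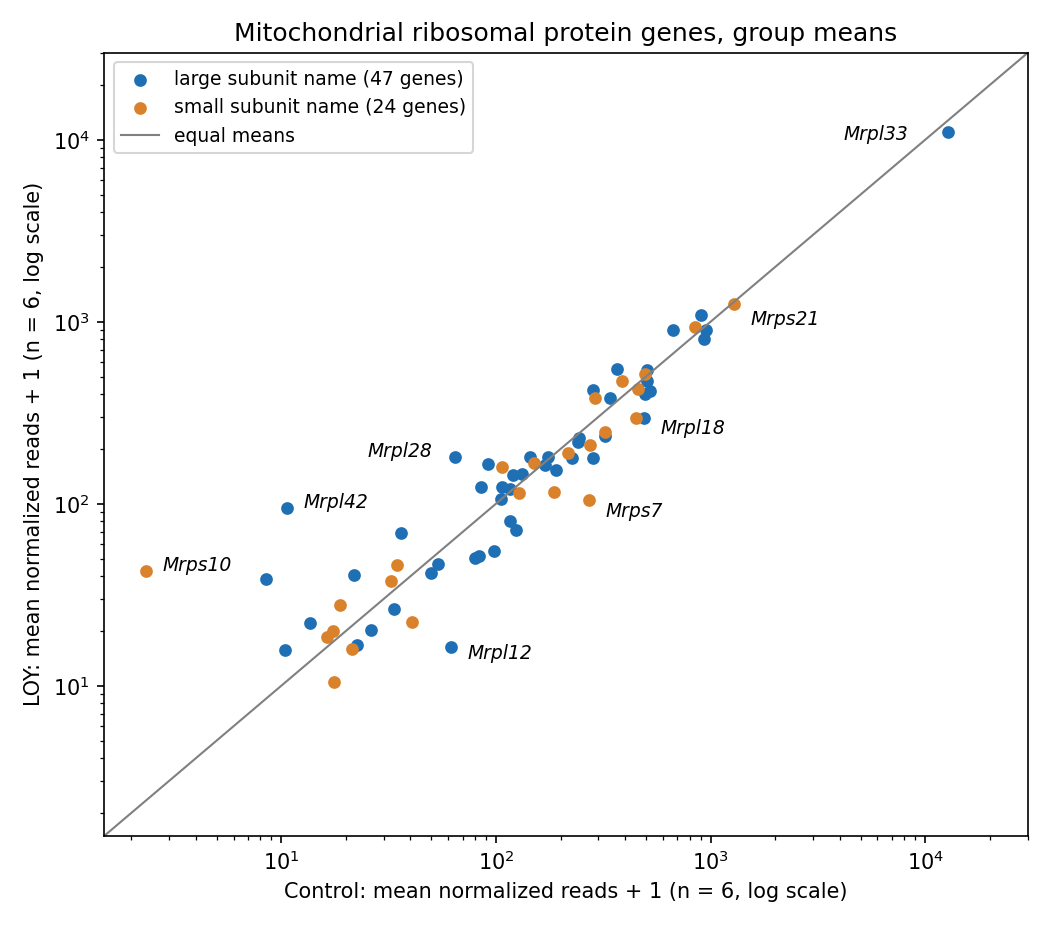
Mean normalized reads plus 1 of each mitochondrial ribosomal protein gene in the 6 Control libraries (x axis, log scale) and the 6 LOY libraries (y axis, log scale), 1 point per gene. Most points lie near the line of equal means, Mrpl33 stands at the upper right at 8374 or more in every library, and Mrps10, Mrpl42 and Mrpl28 lie above the line at the lower left.

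The summed level of the mitochondrial ribosomal protein genes did not separate the groups. All members together made up 1767 ± 252 per 1000000 normalized reads in Control and 1694 ± 123 in LOY (SD, n = 6 each). Control values ran from 1450 to 2084 and LOY values from 1560 to 1894, so the LOY range fell inside the Control range. Large-subunit genes summed to 1404 ± 224 and 1337 ± 73.6, and small-subunit genes to 363 ± 42.0 and 357 ± 60.3. Without Mrpl33 the sum was 1000.2 ± 124 in Control and 1017 ± 107 in LOY. In bulk samples fewer cells that express a gene and less RNA per cell cannot be told apart.

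No member passed the test across all genes. With limma on log2(normalized reads + 1), 66 of 71 members were tested (43 large, 23 small) and 0 had a Benjamini-Hochberg adjusted p under 0.05, where 0.0205% of all 9742 tested genes did. Mrpl3, Mrpl16, Mrpl19, Mrpl45 and Mrps18b were not tested because fewer than 6 libraries reached 10 normalized reads. At an unadjusted p under 0.05 with limma, 6 members were higher in LOY, where 4.4% of all tested genes were, and 2 were lower, where 1.63% were. The 6 include Mrps10, which met this filter only through LOY libraries, and Mrpl42, which met it mainly through them. The count of higher members therefore supports nothing by itself. With edgeR 0 members passed (0.0% of all genes), and 5 of 66 had an unadjusted p under 0.05, where 2.94% of all genes did. With DESeq2 1 member passed, Mrps10 (0.493% of all genes). The authors' deposited table has the same call (0.493% of all genes), and its log2 fold changes equal those of DESeq2 here to the digits printed, so it is not a further test. The groups did not overlap for 1 of 66 tested members, again Mrps10, and for 0.287% of all tested genes. No Control library of Mrps10 reached the filter value of 10 normalized reads, so for a tested Mrps10 this outcome was fixed by the filter.

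The medians of both subunits lay close to that of all genes. The median log2 fold change, LOY against Control, was 0.20 over the 43 large-subunit genes and 0.15 over the 23 small-subunit genes, beside 0.14 over all genes tested. The estimate was above 0 for 43 of 66 members with limma, beside 5935 of all 9742 genes tested. With edgeR it was above 0 for 31 members and below 0 for 35, beside 4798 and 5004 of all genes. The edgeR medians were −0.08 for the large subunit and 0.09 for the small one, beside −0.01 for all genes. Of the 71 log2 fold changes in the authors' deposited table, 34 were positive and 37 negative. With Control 1, 2 and 12 left out the limma medians were −0.10 and −0.17, and with each library's share of genes at 0 (the zero share) added as a covariate they were −0.14 and −0.06. Neither median therefore had a stable sign, and that of the large subunit was also below 0 without Control 2 (−0.054) or Control 12 (−0.0018).

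**Figure D2:**
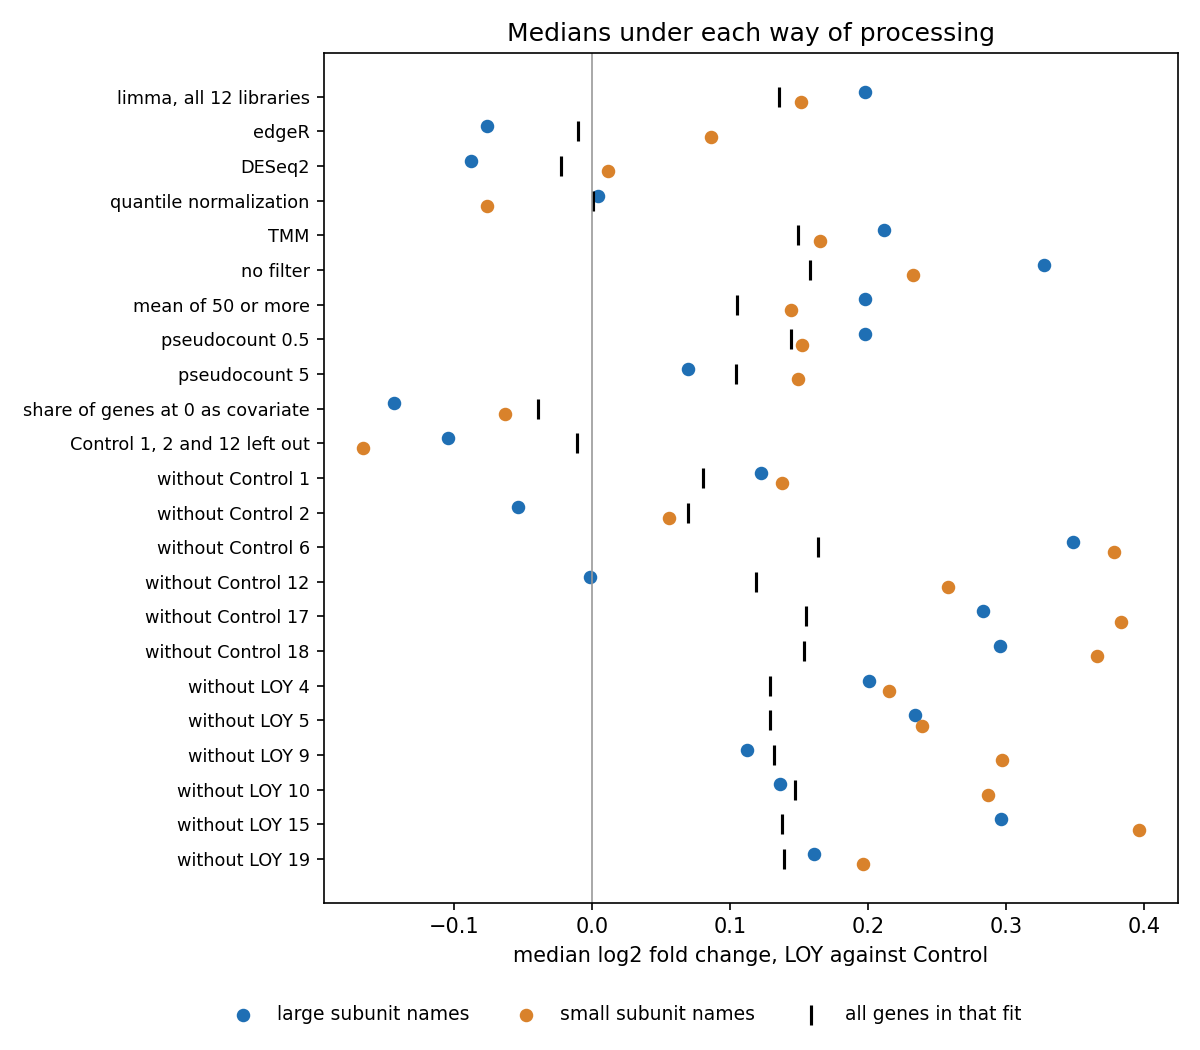
Median log2 fold change (x axis, LOY against Control) over the large-subunit genes (blue) and the small-subunit genes (orange) under each way of processing (rows), with the median of all genes in the same fit as a black bar. The large-subunit median runs from −0.14 to 0.35 and the small-subunit median from −0.17 to 0.40, with both signs present.

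Cytosolic ribosomal protein genes and nuclear-encoded respiratory chain subunit genes were read from the same fit. Of 84 cytosolic ribosomal protein genes tested 0 passed and 0 had an unadjusted p under 0.05 (limma), with a median log2 fold change of −0.08 and a median standard error (SE) of 0.21. Of 74 respiratory chain subunit genes 0 passed, 1 was higher and 4 were lower at an unadjusted p under 0.05, with a median of −0.08 and a median SE of 0.21. The median SE of the mitochondrial ribosomal protein genes was 0.92. For 16 of 66 of them (24.2%) the 95% interval of the fold change lay within 2-fold in either direction, against 30.7% of all genes. A difference from either list was not tested.

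**Figure D3:**
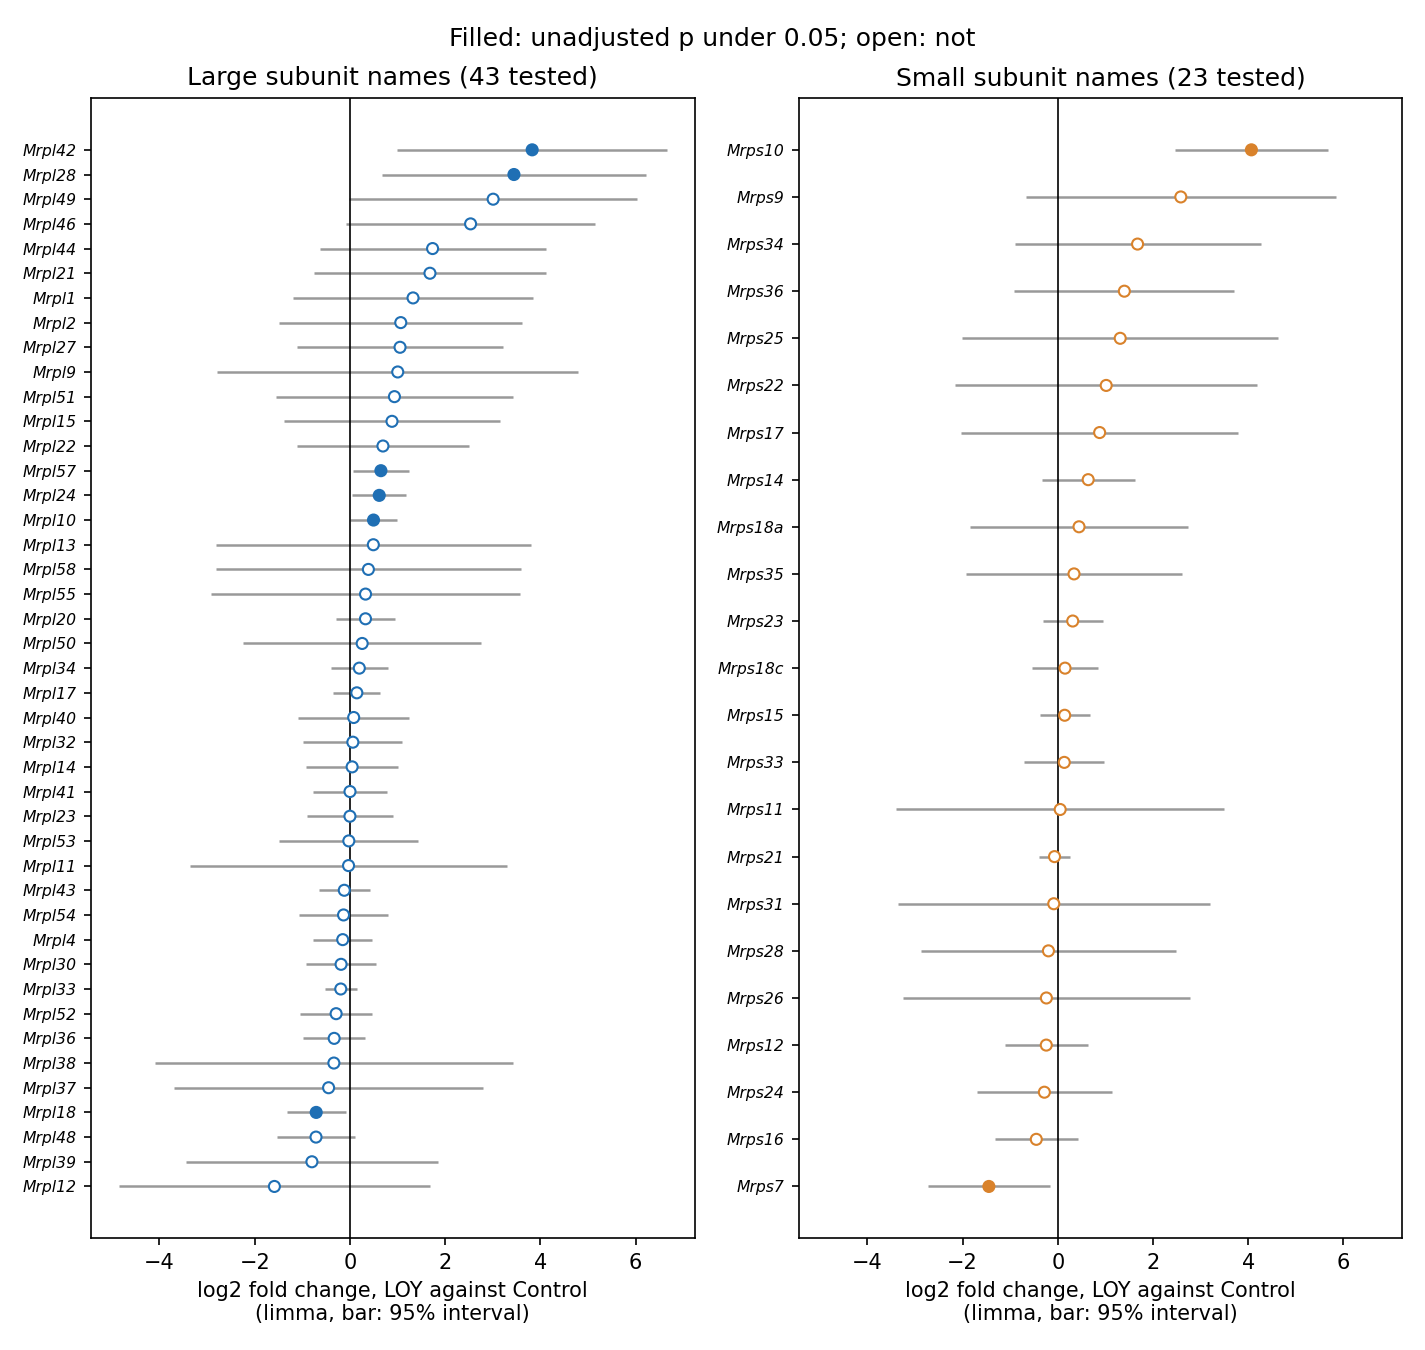
Log2 fold change, LOY against Control, with its 95% limma interval (x axis) for each tested large-subunit gene (left, 43 genes) and small-subunit gene (right, 23 genes), filled where the unadjusted p was under 0.05. The 8 filled points are 6 higher and 2 lower genes, and the widest intervals belong to genes that are near 0 in some libraries.

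The spread of many members came from libraries in which they were read a few times or not at all. Members at 0 numbered 18, 18 and 15 of 71 in Control 1, 2 and 12, while Control 6, 17 and 18 had 3 to 6 and the LOY group 2 to 7. This gave 64 zeros in Control and 27 in LOY, over 33 members. Of all listed genes a mean of 15.0% per library were at 0 in Control and 8.87% in LOY. More zeros in Control were thus a trait of the whole table and not of these members alone. For 27 members (38.0%, against 33.1% of all genes in the table) 1 library or more had at most 3 reads while another had 100 or more normalized reads. Above 3 reads in every library were 31 members (43.7%), against 53.8% of all genes in the table. For 14 members the libraries at or under 3 reads were Control 1, 2 or 12 alone, and the share of all genes with this pattern was not taken.

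**Figure D4:**
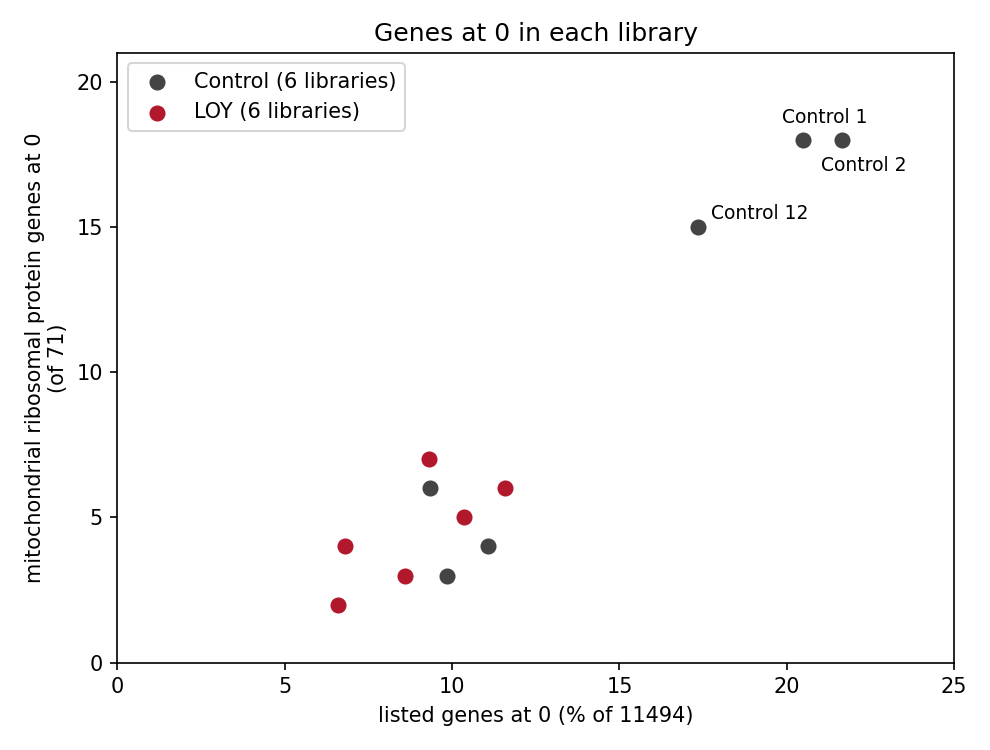
Number of mitochondrial ribosomal protein genes at 0 (y axis, of 71) against the percent of all 11494 listed genes at 0 (x axis) in each library, Control in grey and LOY in red. Control 1, 2 and 12 stand apart with 15 to 18 members at 0, and the other 9 libraries have 2 to 7.

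In the small subunit, Mrps10 had the highest estimate. It encodes a protein of the head of the small subunit, the counterpart of bacterial S10, and lies on chromosome 17, 47368887 to 47381417, on the plus strand. In Control its lowest, median and highest values were 0, 1.04 and 4.68 normalized reads, and in LOY 12.97, 32.4 and 110. Every LOY library was above every Control library. In whole reads the Control libraries had 0 to 5 and the LOY libraries 15 to 123. The log2 fold change was 4.07 ± 0.74 (SE), with an unadjusted limma p of 0.000116 and a Benjamini-Hochberg adjusted p of 0.189. Mrps10 met the filter of 10 normalized reads in 6 libraries only through the LOY libraries, so a tested Mrps10 had to differ. Neither this p nor the lack of overlap supports anything by itself. The authors' deposited log2 fold change was 4.97 with an adjusted p of 0.00747. Over the alternatives run the log2 fold change stayed between 2.12 and 4.97, and its adjusted p ranged from 0.00747 (DESeq2) to 1.00 (edgeR and the fit with the zero share). LOY 15, which had the highest Mrps10 value, was also the library with the highest erythroid marker sum, and without it the log2 fold change was 3.71 (limma adjusted p = 0.422). Without Control 1, 2 and 12 it was 3.85 (limma adjusted p = 0.83).

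Mrps7, the counterpart of bacterial S7 in the small-subunit head, had the only small-subunit estimate below 0 with an unadjusted limma p under 0.05, among 8 of 23 estimates below 0. It lies on chromosome 11, 115603925 to 115608036, and shares 127 exon bases with Gga3 on the opposite strand. Its lowest, median and highest values were 62.4, 313 and 388 normalized reads in Control and 37.7, 88.3 and 231 in LOY. Control 6, at 62.4, was the lowest Control library, and 2 LOY libraries lay below it, so the groups overlapped. The log2 fold change was −1.45 ± 0.59 (SE, limma unadjusted p = 0.0301, adjusted p = 0.794). Of the 8 tested genes of the small-subunit head, which also include Mrps9, Mrps14, Mrps24, Mrps31, Mrps33 and Mrps35, 5 estimates were above 0 and 3 below, with a median of 0.24. The 12 genes of the platform and body had 7 above and 5 below, a median of 0.10, and 0 at an unadjusted p under 0.05 (limma).

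The most abundant small-subunit genes were read at 542 or more in every library. Mrps21 had a lowest, median and highest value of 1204, 1257 and 1421 normalized reads in Control and 996, 1189 and 1821 in LOY (log2 fold change −0.07 ± 0.15 SE, 95% limma interval −0.40 to 0.26). The LOY range enclosed the Control range. Mrps15 stood at 542, 845 and 1140.4 in Control and 647, 911 and 1399 in LOY (0.14 ± 0.24). Mrps25, at the low end, had values of 0, 1.28 and 57.4 in Control and 0, 30.4 and 58.9 in LOY (1.31 ± 1.53, and 0.59 with edgeR). Because it shares 4590 exon bases with Nr2c2 on the opposite strand, its reads are uncertain.

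Among large-subunit genes the highest estimate was that of Mrpl42. It encodes a protein without a bacterial counterpart, once named for the small subunit, and lies on chromosome 10, 95480805 to 95501940, on the minus strand. Its lowest, median and highest values were 0, 1.08 and 40.3 normalized reads in Control and 0.893, 105 and 155 in LOY. Of the LOY libraries 5 were above every Control library, while LOY 15 had a value of 0.893. In Control only libraries 6 and 17 reached 10 normalized reads, so Mrpl42 met the filter mainly through LOY libraries. Its log2 fold change was 3.83 ± 1.31 (SE, limma unadjusted p = 0.0122, adjusted p = 0.762). It was 2.31 without Control 1, 2 and 12 and 2.496 with the zero share as a covariate.

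Mrpl28, the counterpart of bacterial L28, lies on chromosome 17, 26123500 to 26126613. Its values were 0, 37.1 and 201 normalized reads in Control (lowest, median, highest) and 91.1, 191 and 262 in LOY. Control 1, 2 and 6 were at or under 2.15, whereas the other Control libraries had 72.1 to 201 and overlapped with LOY. The log2 fold change was 3.45 ± 1.28 (SE, limma unadjusted p = 0.0191, adjusted p = 0.77), and 1.52 with edgeR.

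Mrpl18, of the central protuberance of the large subunit, was likewise the only large-subunit gene below 0 with an unadjusted limma p under 0.05, among 15 of 43 estimates below 0. It lies on chromosome 17, 12911349 to 12916345, and shares 141 exon bases with the chaperonin gene Tcp1 on the opposite strand. Control values were 267, 457 and 682 normalized reads (lowest, median, highest) and LOY values 198, 282 and 397. Control 18 was the lowest of its group, and the other 5 Control libraries were above every LOY library. The estimate was a log2 fold change of −0.71 ± 0.29 (SE, limma unadjusted p = 0.0283, adjusted p = 0.794), and −0.56 to −0.87 over the alternatives. Of the 7 tested genes of the central protuberance 4 estimates were above 0 and 3 below.

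Mrpl57, Mrpl24 and Mrpl10 had smaller estimates and were read at 171 or more in every library. Mrpl57 (chromosome 14, 57826234 to 57829296), a protein without a bacterial counterpart, had values of 190, 365 and 501 normalized reads in Control and 431, 534 and 749 in LOY (lowest, median, highest), and 4 LOY libraries were above every Control library. Its log2 fold change was 0.65 ± 0.27 (SE, limma unadjusted p = 0.0345, adjusted p = 0.81), and 0.37 with the zero share as a covariate. Mrpl24 (chromosome 3, 87919506 to 87923672), whose bacterial counterpart sits near the exit of the peptide tunnel, had values of 171, 294 and 376 in Control and 355, 387 and 554 in LOY. Here too 4 LOY libraries were above every Control library. The log2 fold change was 0.62 ± 0.26 (SE, limma unadjusted p = 0.036, adjusted p = 0.81). It shares 594 exon bases with Rrnad1 on the opposite strand. Mrpl10 (chromosome 11, 97041560 to 97049213), which anchors the stalk that contacts translation factors, had values of 370, 628 and 1051 in Control and 720, 901 and 1049 in LOY. No LOY library was above the highest Control library. Its log2 fold change was 0.50 ± 0.22 (SE, limma unadjusted p = 0.047, adjusted p = 0.81). Without Control 1, 2 and 12 that value was 0.18 (limma unadjusted p = 0.394).

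**Figure D5:**
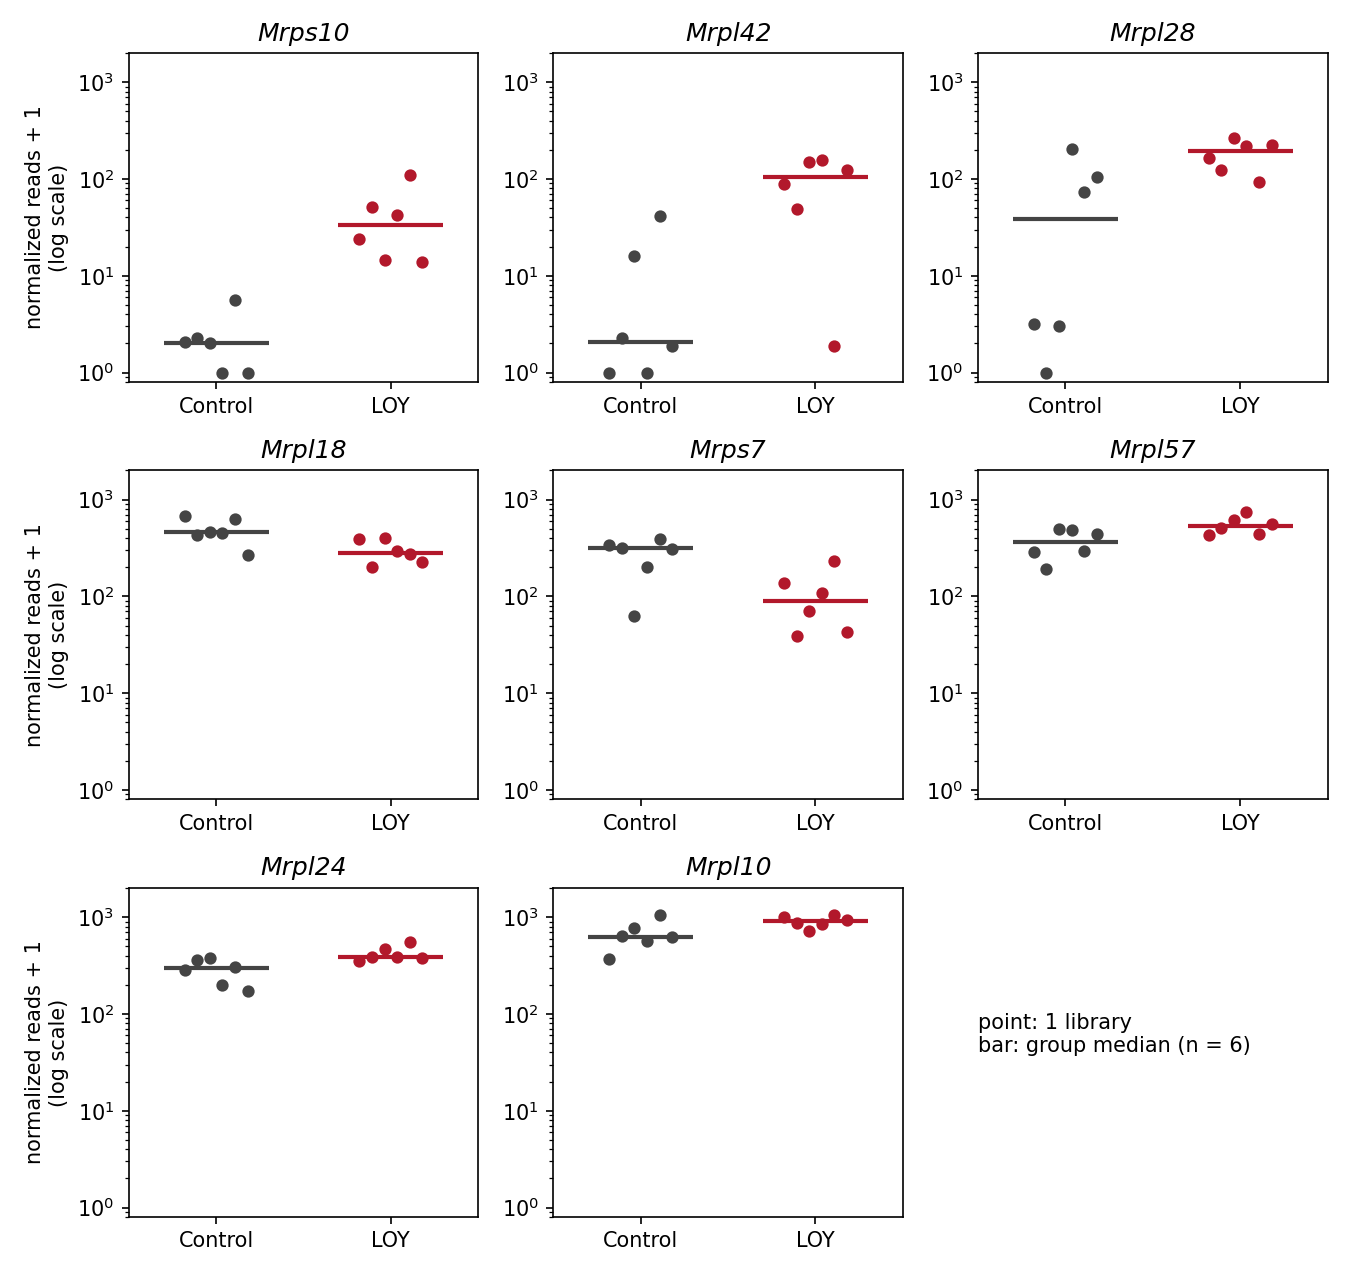
Normalized reads plus 1 (y axis, log scale) in each Control and LOY library (points) with the group median (bar) for the 8 members with an unadjusted limma p under 0.05. The groups do not overlap for Mrps10 and overlap for the other 7 genes.

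The other genes of the stalk and the tunnel exit had estimates of both signs. Mrpl12, which forms the flexible part of the stalk, had values of 0, 57.3 and 151 normalized reads in Control (lowest, median, highest) and 0, 13.8 and 37.7 in LOY (log2 fold change −1.59 ± 1.51 SE). The groups overlapped. The Mrpl12 estimate depended on the fit. It was −4.61 with the zero share as a covariate (limma unadjusted p = 0.00658) and −3.57 without Control 1, 2 and 12 (0.0299). With quantile normalization it was −2.91 (limma unadjusted p = 0.0171). It was −1.96 with edgeR (unadjusted p = 0.207) and −1.99 with DESeq2 (unadjusted p = 0.182). The adjusted p of Mrpl12 was over 0.05 in each, and 2 Control and 2 LOY libraries had at most 3 of its reads. Mrpl11, at the base of the stalk, stood at −0.03 ± 1.54, and at −0.39 with edgeR. It was −2.86 with the zero share as a covariate and −2.80 without Control 1, 2 and 12. Mrpl22 and Mrpl23, which line the tunnel exit, stood at 0.69 ± 0.83 and 0.00 ± 0.42. Without Control 2, which had 3.84 normalized reads of Mrpl22 where the other Control libraries had 128 to 185, the Mrpl22 estimate was −0.14. Mrpl23 has a processed copy in the table, Mrpl23-ps1, with 119 ± 22.1 normalized reads in Control and 102 ± 30.0 in LOY (SD, n = 6 each), and the counting could have split reads between the copies. In the main limma fit, with all 12 libraries, no covariate and no quantile normalization, none of the 4 had an unadjusted p under 0.05.

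The 2 highest and the 2 lowest tested large-subunit genes per kilobase of exons overlapped between groups. Mrpl33 had values of 9668, 12283 and 18246 normalized reads in Control (lowest, median, highest) and 8374, 10986 and 13074 in LOY (log2 fold change −0.19 ± 0.16 SE, 95% limma interval −0.53 to 0.15). Mrpl43, which shares 507 exon bases with the mitochondrial helicase gene Twnk on the opposite strand, stood at 598, 956 and 1228 and at 575, 793 and 1375 (−0.12 ± 0.25). Mrpl13, the counterpart of bacterial L13, had values of 0, 61.8 and 89.9 in Control and 0, 40.7 and 70.1 in LOY (0.49 ± 1.52). Mrpl58 ran from 0 to 74.0 and from 0 to 27.7 (0.39 ± 1.48). For Mrpl13 and Mrpl58 the sign turned with edgeR (−0.25 and −0.44).

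A pair of members are named for the small subunit but are placed elsewhere by structure. Mrps18a, which sits in the large subunit, had values of 2.15, 319 and 384 normalized reads in Control and 131, 204 and 316 in LOY (lowest, median, highest; log2 fold change 0.45 ± 1.05 SE). The estimate was −0.37 with edgeR. Mrps36, now known as a part of the 2-oxoglutarate dehydrogenase complex, had values of 0, 9.64 and 46.2 and of 6.37, 20.4 and 26.8 (1.40 ± 1.06, and 0.21 with edgeR). Large-subunit genes classed as having a bacterial counterpart had a median of 0.33 over 26 tested genes, and those classed as having none 0.04 over 18. In the small subunit the medians were 0.05 over 13 genes and 0.33 over 8. With edgeR these 4 medians were −0.01, −0.32, −0.03 and 0.20, so their order depended on the tool. Mrps18a was counted with the large-subunit genes that have a counterpart, though none in the bacterial large subunit was identified for it here. Mrps18b was classed as having none, so the classing was not uniform. The medians without Mrps18a were not taken.

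The other genes of mitochondrial translation were taken from lists. Beside the signs in these lists, 5935 of all 9742 tested genes had an estimate above 0 (limma). Of the 5 ribosomal proteins under other names, 3 estimates were above 0 and 2 below, and 0 had an unadjusted p under 0.05 (limma). Dap3, a GTP-binding protein of the small subunit, ran from 2.56 to 884 normalized reads in Control and from 252 to 591 in LOY (log2 fold change 0.96 ± 1.09 SE, and −0.04 with edgeR). Gadd45gip1 stood at 1.03 ± 1.04 (0.20 with edgeR) and Aurkaip1 at −0.17 ± 0.20. Of 27 assembly factors 18 were tested, and 15 estimates were above 0, with a median of 0.80. That median was 0.07 with edgeR and −0.35 with the zero share as a covariate. At an unadjusted p under 0.05 was 1 of them, Eral1, a GTPase that binds the small ribosomal RNA. Eral1 ran from 0 to 80.5 normalized reads in Control, with 4 libraries at 0, and from 0 to 182 in LOY. Its log2 fold change was 3.71 ± 1.44 (SE, limma adjusted p = 0.794). In Control only library 17 reached 10, so Eral1 met the filter of 10 normalized reads in 6 libraries only with LOY libraries. Its unadjusted p supports nothing by itself. The RNase Ybey (2.23 ± 1.09) and the helicase Ddx28 (2.84 ± 1.51) followed. With edgeR Eral1 stood at 2.31, Ybey at 1.73 and Ddx28 at 0.34, and with the zero share as a covariate Ybey stood at 0.38.

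Of 15 translation factors 8 were tested, all with an estimate above 0, and the median was 1.12 (0.75 with edgeR, −0.16 with the zero share as a covariate). Mtfmt, which formylates the initiator methionyl-tRNA of mitochondria, had values of 0, 0.538 and 142 normalized reads in Control (lowest, median, highest) and 34.8, 123 and 204 in LOY. Control 18 alone reached 142 in its group. The log2 fold change was 4.68 ± 1.22 (SE, limma adjusted p = 0.526). The group means differed by a factor of 4.53, less than this value implies, and the log2 fold change was 2.19 with edgeR, 2.18 with DESeq2, 2.86 with the zero share as a covariate and 3.03 without Control 1, 2 and 12. Without Control 18 it was 5.71, with a limma adjusted p of 0.0432, the only setting run in which Mtfmt passed. In Control only libraries 6 and 18 reached 10 normalized reads, so Mtfmt met the filter mainly through LOY libraries. Neither adjusted p supports anything by itself. Tufm, the elongation factor that delivers tRNAs, ran from 0 to 85.8 in Control and from 0.925 to 422 in LOY, with 5 LOY libraries above every Control library (3.51 ± 1.61, adjusted p = 0.81). It stood at 0.12 with the zero share as a covariate. Mtif3, an initiation factor, stood at 2.29 ± 1.43 (0.98 with edgeR).

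Of 20 mitochondrial tRNA synthetases 10 were tested, with 5 estimates above 0, 5 below and a median of 0.05. Rars2, for arginine, was at 0 in 5 Control libraries and at 195 in Control 6, and ran from 0 to 145 in LOY. Its log2 fold change was 3.75 ± 1.598 (SE, limma unadjusted p = 0.0362, adjusted p = 0.81). Rars2 too met the filter of 10 normalized reads in 6 libraries only with LOY libraries. Its unadjusted p supports nothing by itself. Tars2, for threonine, stood at 2.16 ± 1.11 and Mars2, for methionine, at −2.53 ± 1.66. With edgeR Rars2 stood at 1.09, Tars2 at 1.04 and Mars2 at −1.37. Of 21 genes of mitochondrial transcription and RNA processing 12 were tested, 10 with an estimate above 0, and 0 had an unadjusted p under 0.05 (limma). Among them Fastk, which acts on mitochondrial transcripts, stood at 2.54 ± 1.22, the transcription factor gene Tfb2m at 2.31 ± 1.39 and the helicase gene Supv3l1 at 2.30 ± 1.53. With edgeR these were 1.22, 0.78 and 0.65. With the zero share as a covariate Fastk stood at −0.03 and Supv3l1 at −0.82.

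Of the mitochondrially encoded genes, which hold the messages that this ribosome translates, 10 of 15 were in the table and tested, 2 estimates were above 0 and 8 below, and 0 had an unadjusted p under 0.05 (limma). The median was −0.19 with limma, −0.18 with edgeR, −0.03 without Control 1, 2 and 12 and 0.08 with the zero share as a covariate, so its sign turned. The complex I subunit gene mt-Nd1 had values of 560, 891 and 1389 normalized reads in Control and 307, 708 and 1442 in LOY (lowest, median, highest; log2 fold change −0.40 ± 0.37 SE). The LOY range enclosed the Control range. Also of complex I, mt-Nd5 stood at 0.98 ± 0.74 (0.40 with edgeR) and mt-Nd6 at −0.56 ± 0.57. None of these pathway lists had a gene with an adjusted p under 0.05 when all 12 libraries were used (limma).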

How the data were processed

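Blood neutrophil RNA was measured in 6 Control and 6 LOY libraries, grouped by the genotype and title labels. Per the labels' protocols, cDNA was made with SMART-Seq v4 and libraries with Nextera XT. GRCm38 and mm10 are the builds in the submitters' processing notes, and the tools there are STAR 2.5.2b, Trimmomatic 0.36, bcl2fastq 2.17, Subread 1.5.2 and featureCounts. The authors deposited 1 table of normalized signal, 1 column for each library, with no unit in the headers. All 12 libraries held whole multiples of 1 step within 0.02 reads (100.0% of values), so each value of the deposited signal is a whole read count over the size factor of its library. The table lists no gene with a mean below 8.63. The authors' log2 fold changes and p-values are columns of the same table, per the file headers, and the sources used here do not name the tool behind them.

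The main test was limma 3.58.1 (R 4.3.3; trended, robust) on log2(value + 1), for genes with 10 or more in at least 6 libraries, over all 9742 such genes, with Benjamini-Hochberg adjustment at 0.05. Fold changes on this scale understate the change of low genes, and can be larger than the ratio of group means for genes near 0 in part of a group. Recovered reads were also tested with DESeq2 1.42.0 and with edgeR 4.0.16 (quasi-likelihood), each with its own filter. Other limma alternatives were TMM or quantile normalization, a filter at a mean of 50, no filter, a pseudocount of 0.5 or 5, the share of genes at 0 per library (the zero share) as covariate, Control 1, 2 and 12 left out, and each library left out in turn with the same genes tested. The scripts were tested on simulated data.

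Positions and exon lengths come from GENCODE vM21 (GRCm38), which held 11472 of the listed identifiers. A date had replaced 16 gene names, which were restored through their identifiers. Annotated symbols not analysed here are Mrpl35, Mrpl47, Mrps2, Mrps5, Mrps6, Mrps27 and Mrps30. Values in every library underlie the members with an unadjusted limma p under 0.05, those called in the authors' table or by DESeq2, those whose groups do not overlap, and the 2 highest and 2 lowest tested members per kilobase of each subunit. Of each pathway list the 3 tested genes with the smallest p are named, and Mrps18a and Mrps36 for their place in the structure. Mrpl11, Mrpl12, Mrpl22 and Mrpl23 are named by role, chosen after their values were seen. The members and lists were chosen with earlier results of these data known.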

Additional observations from a re-analysis of the deposited data

Results flagged for a closer look

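In 86 groups of 6 libraries the highest or lowest value was compared with the rest of its group by Dixon's ratio, and 10 stood apart. Chance alone marks about 1 group in 20 where values are normally distributed. Untransformed reads with zeros are not, so the 10 cannot be judged against that rate. Mrps10 in Control 17 had 4.68 normalized reads, where the other Control libraries had 0 to 1.28. Mrpl11 in LOY 19 had 76.9 (others 0 to 23.7), and Mrpl22 in Control 2 had 3.84 (others 128 to 185). Mrps21 in LOY 19 had 1821, against 996 to 1276 in the other LOY libraries. The summed small-subunit genes in LOY 19 reached 474 per 1000000 normalized reads, against 299 to 350 in the other LOY libraries. The other 5 were genes of the pathway lists in Control libraries. Aurkaip1 had 2695 in Control 2 (others 1453 to 1610), Eral1 had 80.5 in Control 17 (others 0 to 1.28) and Ybey had 46.3 in Control 6 (others 0 to 13.1). Mtfmt had 142 in Control 18 (others 0 to 13.1), and Rars2 had 195 in Control 6, where the other 5 Control libraries were at 0.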

How the results depend on the processing

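The count of members past the adjusted threshold was 0 in every setting run except DESeq2, where it was 1. At an unadjusted p under 0.05 the count was 8 with all libraries, 5 with edgeR, 5 at a mean of 50 or more, 2 with the zero share as a covariate, 4 without Control 1, 2 and 12, and 4 (without LOY 19) to 8 with 1 library left out. The large-subunit median of 0.20 became −0.076 with edgeR, −0.088 with DESeq2, −0.14 with the zero share as a covariate and −0.10 without Control 1, 2 and 12, and ran from −0.054 (without Control 2) to 0.35 (without Control 6) with 1 library left out. The cause was not tested. The small-subunit median ran from 0.06 to 0.40 with 1 library left out. Signs turned as follows. With edgeR and DESeq2: Mrpl13 (−0.25 and −0.27), Mrpl58 (−0.44 and −0.46), Mrps18a (−0.37 and −0.38) and Dap3 (−0.038 and −0.055). With quantile normalization: Mrpl13 (−0.46), Mrpl58 (−0.83), Mrps18a (−0.076), Mrps25 (−0.062), Mrps36 (−0.11) and Mrpl23 (−0.23). At a pseudocount of 0.5: Mrpl11 (0.15). With the zero share as a covariate: Mrpl13 (−2.68), Mrpl22 (−0.60), Mrpl58 (−2.23), Mrps15 (−0.10), Mrps18a (−0.66), Mrps21 (0.024), Dap3 (−1.09), Aurkaip1 (0.085), Mtif3 (−0.37), Fastk (−0.028), Supv3l1 (−0.82) and mt-Nd6 (0.11). Without Control 1, 2 and 12: Mrpl13 (−1.55), Mrpl22 (−0.20), Mrpl23 (−0.086), Mrpl58 (−2.27), Mrps15 (−0.051), Mrps18a (−0.50), Mrps25 (−0.29), Dap3 (−0.68) and Supv3l1 (−0.88). With 1 library left out: Mrpl11 (from −0.74 to 0.69), Mrpl13 (from −0.33 to 1.41), Mrpl22 (from −0.14 to 0.91), Mrpl23 (from −0.14 to 0.20), Mrpl58 (from −0.14 to 1.10), Mrps18a (from −0.67 to 0.72) and Dap3 (from −0.18 to 1.41). The other 23 of 39 gene values printed kept their sign in all settings that tested them. Many estimates of genes near 0 in some libraries still moved by over 1.5 times, as given beside them. Mrps10, Eral1 and Rars2 are among the 23, but met the filter only with LOY libraries, so their kept sign supports nothing by itself. No paired analysis was possible because the groups share no replicate numbers. Reads near 0 limit 40 members, which had 3 or fewer reads in 1 library or more.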
